A study of Mus musculus with 28 samples.

Results

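The interferon-inducible genes of the Gbp, Irg, Mx, Ifit, Ifitm, Oas, Isg and Ifi families were followed through the conversion of mouse Pre-B cells into macrophages. Their members were taken by gene symbol from the RNA-seq table: symbols that begin with Gbp and a digit, with Ifi and a digit, h or t, with Irgm, Iigp, Oas or Isg, and the symbols Igtp, Mx1 and Mx2. This gave 67 of the 55450 genes in the table, and the rule uses no measured value. The cells were C10, a HAFTL-derived mouse Pre-B cell line with a transgene for rat C/EBPα fused to the hormone-binding domain of the estrogen receptor (CEBPalpha-ER), which enters the nucleus when β-estradiol is added. All samples came from this 1 cell line and all carried the transgene, the 0h samples included. Induction was with 100 nM β-estradiol, 10 nM IL-3 and CSF-1, and RNA was taken before induction (0h) and after 1h, 12h and 48h, with 3 biological replicates at each time, so that the hormone, the cytokines and time in culture cannot be told apart. Promoter Capture Hi-C (PCHi-C), which lists the fragments that contact captured promoter fragments (baits), was available as 1 list per time point, merged from 2 replicates.

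Interferons are secreted proteins that signal through receptors of several types. Type I interferons bind Ifnar1 and Ifnar2 and act through the kinases Jak1 and Tyk2 on a complex with Stat2 and Irf9 that binds the interferon-stimulated response element (ISRE), whereas interferon gamma binds Ifngr1 and Ifngr2 and acts on gamma-activated sites (GAS). The genes switched on this way encode GTPases that attack pathogen vacuoles (Gbp, Irg), blocks on viral entry and translation (Ifitm, Ifit, Mx, Oas) and sensors of DNA and RNA (the PYHIN genes and Ifih1), and macrophages are among the cells known for them.

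RNA levels are given as TPM, the share of a library's transcripts after correction for transcript length, so that levels of different genes can be set side by side. A pair of overlapping ribosomal RNA genes took 70.3% to 82.9% of the TPM of each library, and the TPM left outside the 20 most abundant genes was 58343, 65622 and 94692 in the 48h replicates 1, 2 and 3, against 87596 to 91905 at 0h and 122920 to 131784 at 1h. The replicate 3 libraries stood apart at every time, with the lowest share of TPM in the ribosomal RNA genes (70.3% to 76.9%, against 73.7% to 82.9% in the others) and the lowest share of genes at 0 within each time. Deviations from the group means correlated among them at 0.07 to 0.26 over all 6 pairs of these libraries, and at -0.18 to -0.01 over the 24 pairs with a library of another number, across genes that are not independent. Because the deviations within a time sum to 0, the negative values follow largely from the positive ones and add no separate evidence. Counts without these 4 libraries, an alternative chosen after seeing the data, are given beside the main counts. Differences were tested with limma on log2(TPM + 0.1) for the 16415 genes whose mean TPM reached 0.1, and a gene is said to have risen or fallen (to be called) where the Benjamini-Hochberg adjusted p was under 0.05 and the change was over 2-fold. Changes are given as log2 fold change ± SE. Over all tested genes, the middle log2 fold change against 0h stood at 0.59 for 1h, 0.34 for 12h and -0.18 for 48h. Scaling by median-of-ratios brought this median to 0.02, 0.07 and 0.07 and changed the share of higher among all called genes: for 1h it was 93.9% on TPM and 59.2% when scaled, for 12h 75.5% and 56.1%, for 48h 36.9% and 52.6%, and for 48h against 12h 13% and 49.4%. Values under this scaling are therefore given where they change a call. The p-values measure the spread between cultures of 1 cell line. All 10 Pre-B markers examined had every 48h library below every 0h library, their sum going from 301 to 340 TPM at 0h to 29.9 to 41.9 TPM at 48h, and 8 of 10 macrophage markers had every 48h library above every 0h library, the list going from 3.66 to 4.94 TPM to 239 to 321 TPM, but Adgre1 (F4/80) was at 0, 0 and 0.29 TPM in the 48h libraries. Since the RNA came from whole cultures, fewer cells of a type and less RNA per cell cannot be told apart.

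The promoters of the leading members are shown first, because the ISRE and GAS elements were searched for there. They were chosen as the called members with the largest rise at 48h, 1 per family (Ifi202b, Ifitm6, Mx1 and Ifit3), and as the member with the highest TPM at 0h (Ifi30). Ifi202b, Ifitm6 and Mx1 were listed at 0 in every 0h library, so the size of their rise depends on the 0.1 added. The RefSeq table of promoters (GRCm38.p6) held 48 of the 67 members, and Mx1 is named only. Each run below is the 250 bases before the annotated start, 5′ to 3′ on the gene's strand, with matches to the ISRE core (GAAA, any 2 bases, GAAA) and to the GAS core TTCNNNGAA, on either strand, in capitals. They lie at chr1:173982845-173983094 (minus strand), chr7:141016893-141017142 (minus), chr19:34583279-34583528 (plus) and chr8:70766664-70766913 (minus).
Ifi202b: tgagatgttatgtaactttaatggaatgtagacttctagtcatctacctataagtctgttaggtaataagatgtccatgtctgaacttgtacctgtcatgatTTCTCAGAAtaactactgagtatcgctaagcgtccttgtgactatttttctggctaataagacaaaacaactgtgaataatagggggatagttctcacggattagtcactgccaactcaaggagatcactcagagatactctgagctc
Ifitm6: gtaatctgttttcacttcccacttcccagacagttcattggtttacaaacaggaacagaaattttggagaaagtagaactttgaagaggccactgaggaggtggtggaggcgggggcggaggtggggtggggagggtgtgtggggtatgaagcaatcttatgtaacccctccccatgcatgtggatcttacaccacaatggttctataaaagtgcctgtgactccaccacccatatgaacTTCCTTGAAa
Ifit3: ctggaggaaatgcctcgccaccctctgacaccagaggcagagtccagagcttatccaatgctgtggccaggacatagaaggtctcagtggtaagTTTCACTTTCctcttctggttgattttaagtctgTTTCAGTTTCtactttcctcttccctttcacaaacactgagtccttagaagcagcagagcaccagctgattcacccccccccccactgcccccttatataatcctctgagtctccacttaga
Ifi30: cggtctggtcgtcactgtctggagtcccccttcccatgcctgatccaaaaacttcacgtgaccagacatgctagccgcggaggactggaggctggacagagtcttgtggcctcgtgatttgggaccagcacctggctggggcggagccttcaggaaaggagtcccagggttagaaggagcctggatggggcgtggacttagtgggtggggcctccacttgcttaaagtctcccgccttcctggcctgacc
In these windows, the Ifit3 promoter held 2 matches to the ISRE core, beginning 122 and 156 bases before the start, and the Ifi202b and Ifitm6 promoters held 1 match each to the GAS core, 148 and 10 bases before it. Ifi30 held neither, and held 1 match to the C/EBP core TTNNGCAA. A match of letters is a description of the sequence and not evidence of binding.

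Over all members in the promoter table, 27 of 48 genes (56.2%) held the ISRE core in this window, compared with 3.46% of the 27025 genes of the table. The GAS core was found in 9 of 48 (18.8%) and in 8.13% of all genes, and the C/EBP core in 9 of 48 (18.8%) and in 10.8% of all genes. No member promoter had an ISRE and a GAS match that overlapped. By family, the ISRE core was in all 5 GBP promoters listed, 5 of 6 of IFIT, 8 of 10 of PYHIN, 3 of 4 of IRG, 4 of 8 of OAS, 1 of 3 of Isg and 1 of 7 of IFITM, and in 0 of 5 of the remaining Ifi genes. The 39 matches began between 12 and 188 bases before the start, with a median of 64, and 35 lay within 150 bases. Matches were counted per gene, and the 2 of Ifit1 and the 2 of Ifit1bl2 are the same sites, read on opposite strands. For each family with a match, the one nearest the start is shown for the member with the highest 48h level among those that hold one, with up to 5 bases on each side and the match in capitals, read on the strand of the gene (plus for Gbp7, Ifit3 and Ifi208 and minus for the others).
Gbp7, chr3:142530278-142530297: tgcagTTTCAGTTTCagttc
Irgm1, chr11:48871430-48871449: aaataGAAACCGAAActgat
Ifit3, chr19:34583402-34583421: gtctgTTTCAGTTTCtactt
Ifitm2, chr7:140955993-140956012: aacagGAAAAGGAAAttgct
Oas1g, chr5:120887614-120887630: aaatgGAAACTGAAAat
Isg15, chr4:156200870-156200889: aaaccGAAACAGAAAatagc
Ifi208, chr1:173673602-173673621: ctgagGAAATCGAAAgctat
These examples were picked after the matches were known, and Ifit2, Oasl2, Ifi202b and Ifi209, which had higher 48h levels than the genes shown of their families, held no match. All 8 PYHIN matches lay on the strand of the gene, as in the Ifi208 line, and all 6 GBP matches lay on the opposite strand, as in the Gbp7 line. Among the tested members in the promoter table, the ISRE core was in 19 of the 30 that had risen at both 12h and 48h, in 7 of the 9 that had risen at 48h but not at 12h, and in 0 of the 3 that had not risen at 48h.

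The members changed little at 1h, more at 12h and most at 48h. Of the 67, 56 passed the filter on low values, and 52 of these had their highest mean at 48h. At 48h, 52 of 56 had risen and 2 had fallen, whereas 13.5% of all genes tested had risen and 23.1% had fallen. All 3 libraries of 48h lay above all of 0h for 51 members, against 19.2% of all genes. The tested members had a median log2 fold change of 4.50, against -0.18 for all genes. A member can pass the filter through its 48h level alone, so these shares describe the tested members only; over the 46 with a value above 0 in some 0h library the median was 4.19. At 12h, 38 of 56 had risen and 1 had fallen (17.7% and 5.75% of all genes), with a median of 1.78 against 0.34, and for 37 all 12h libraries lay above all of 0h (30.6% of all genes). Summed over all 67 members, TPM was 78.0, 75.7 and 70.0 at 0h, 91.6, 85.1 and 79.1 at 1h, 218, 221 and 267 at 12h and 1055, 1217 and 1155 at 48h. The heat map by library shows this order of levels for the tested members.

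**Figure D1:**
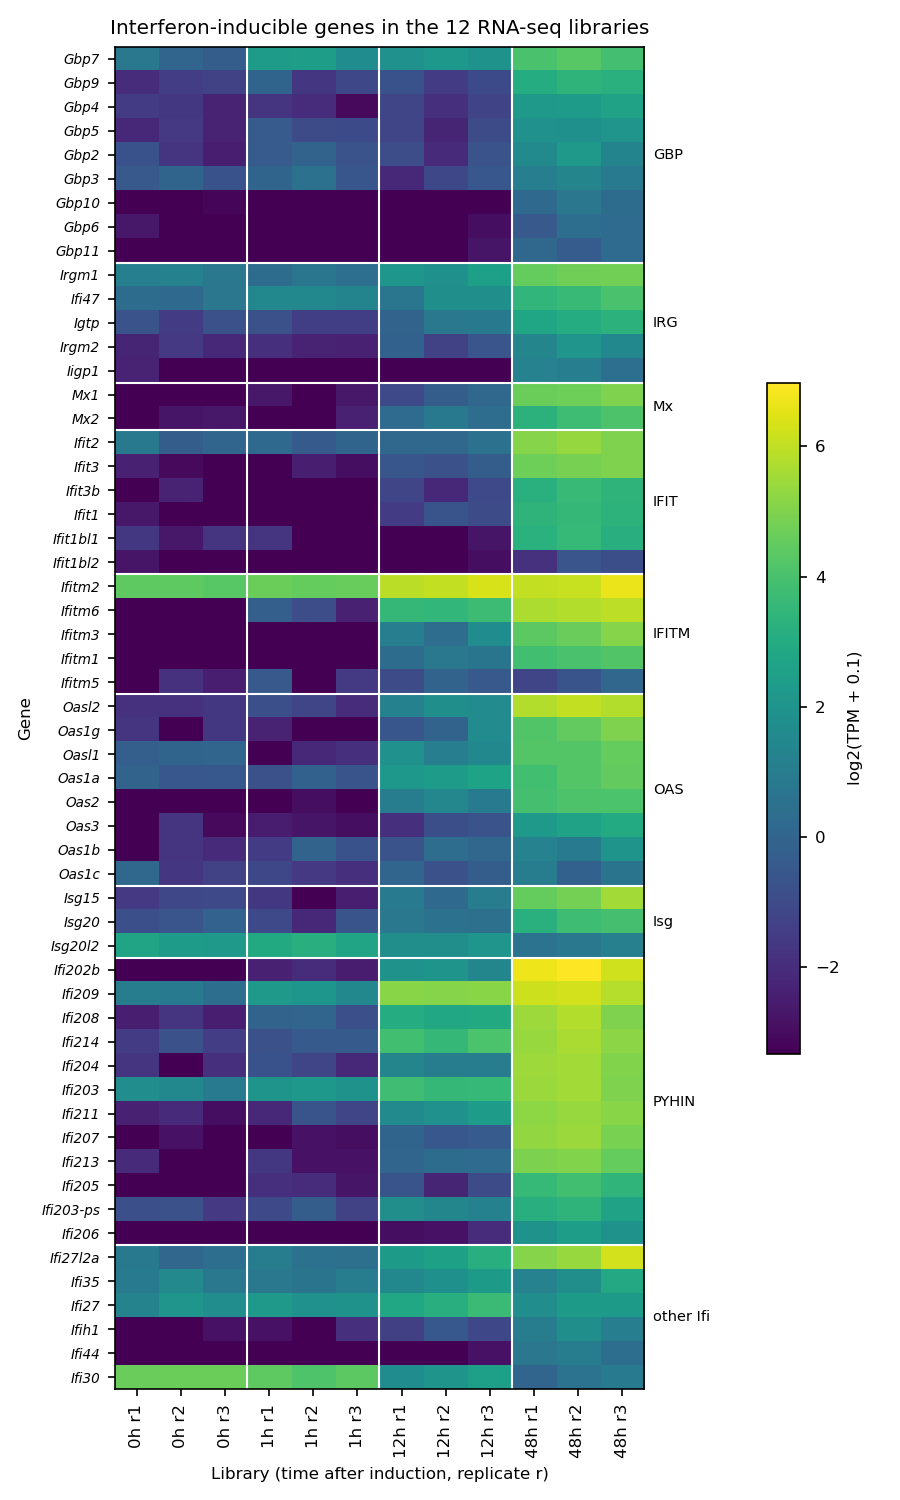
Level of the 56 tested interferon-inducible genes (rows, grouped by family) in the 12 RNA-seq libraries (columns, ordered by time and replicate), as log2(TPM + 0.1). The 48h columns are the brightest for 52 of the 56 genes by their mean, and Ifi30 and Isg20l2 are brighter at 0h than at 48h.

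The rise was not a single step. Between 12h and 48h, which is not a contrast of the study, 48 of 56 members rose and 2 fell, compared with 3.55% and 23.8% of all genes, and for 49 all 48h libraries lay above all of 12h (5.81% of all genes). Of the members, 34 rose from 0h to 12h and again from 12h to 48h, 14 rose between 12h and 48h and by 48h but were not called at 12h, 3 were higher at both 12h and 48h without a call between these times, and 1 was called higher only against 0h at 48h. The remaining 4 were Ifi30, Isg20l2, Ifi27 and Ifi35, described below. At 1h, 9 of 56 had risen and 1 had fallen (16.7% and 1.08% of all genes), a share of risen genes near that of all genes. The tested members then had a median log2 fold change of 0.07, against 0.59 for all genes. All 1h libraries lay above all of 0h for 12 members (40.8% of all genes) and below for 4 (3.28%). With median-of-ratios scaling 3 members were called higher and 3 lower at 1h (4.09% and 2.82% of all genes), 35 higher and 3 lower at 12h (12.0% and 9.42%), and 53 higher and 2 lower at 48h (19.6% and 17.6%), and between 12h and 48h 50 higher and 0 lower (7.57% and 7.74%), the 2 losses of call there being Ifi27 and Ifi30. Without the 4 replicate 3 libraries, 55 members were tested, of which 5 rose and 1 fell at 1h (11.9% and 0.909% of all genes), 27 and 1 at 12h (11.1% and 6.07%), 49 and 2 at 48h (11.1% and 23.8%), and 47 and 2 between 12h and 48h (3.01% and 19.9%). The 11 calls lost at 12h were Ifi47, Igtp, Irgm1, Irgm2, Isg15, Isg20, Oas1b, Oas3, Ifit3b, Ifitm5 and Ifi205. Without 1h replicate 2 the 9 members called higher at 1h became 4, and without 0h replicate 3 they became 5.

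**Figure D2:**
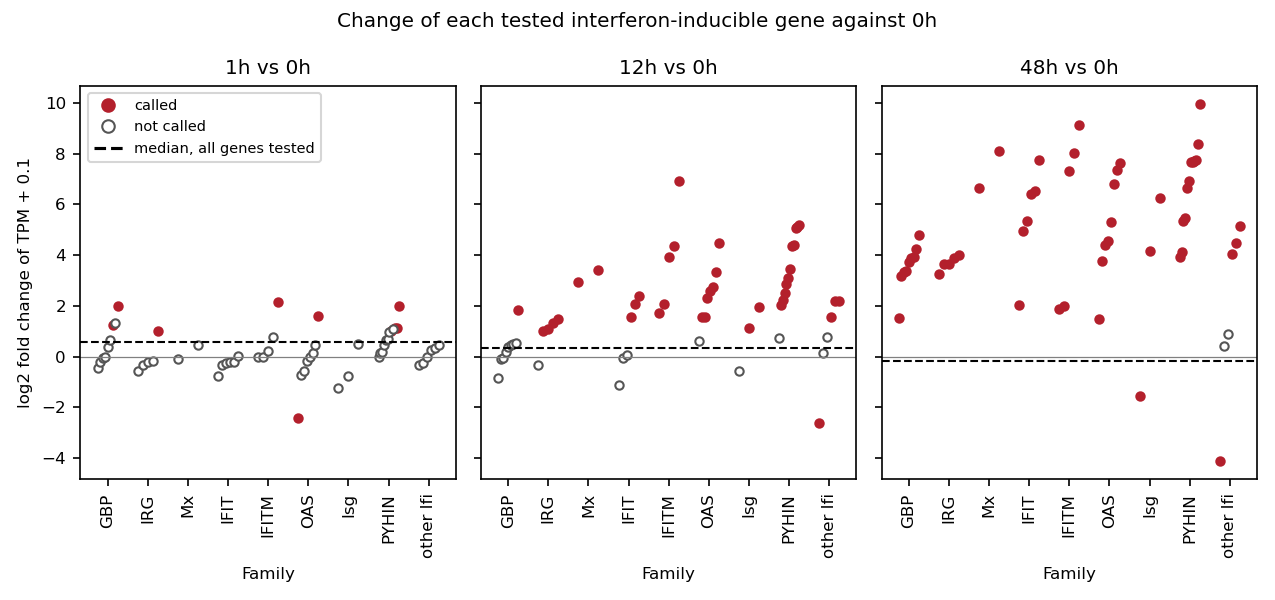
Log2 fold change of TPM + 0.1 against 0h (vertical axis) for each tested member, by family, at 1h, 12h and 48h. Filled points were called and open points were not, the dashed line is the median of all genes tested (0.59, 0.34 and -0.18), and the heights of genes listed at 0 in every 0h library depend on the 0.1 added.

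The families differed in when their summed level moved. At 12h the PYHIN, IFITM, OAS and Mx sums were several times those of 0h, whereas the Isg sum was near its 0h level and that of the other Ifi genes was lower on average, and in every family the larger part of the rise in TPM came after 12h. Summed TPM of the 12 PYHIN genes was 6.39, 5.83 and 3.86 TPM at 0h, 11.3, 12.1 and 8.45 at 1h, 86.7, 78 and 85.3 at 12h and 481, 552 and 373 at 48h. The 7 IFITM genes summed to 21.4, 21.2 and 20 TPM at 0h, 26.8, 24 and 24.1 at 1h, 75.8, 79.9 and 101 at 12h and 154, 166 and 218 at 48h. In contrast, the 6 IFIT genes summed to 2.09, 0.89 and 1.12 TPM at 0h, 1.25, 0.74 and 0.94 at 1h, 2.16, 2.13 and 2.96 at 12h and 89.5, 106 and 92.6 at 48h, with the 12h libraries just above the highest 0h library. The 12 GBP genes summed to 3.39, 2.75 and 1.82 TPM at 0h, 8.45, 8.33 and 5.03 at 1h, 5.36, 5.47 and 6.2 at 12h and 40.7, 48.9 and 42 at 48h, higher at 1h and 12h than at 0h in every library but far below 48h. The sums are descriptions without a test. At 48h they were 87.5 times the 0h mean for PYHIN, 70.3 times for IFIT, 57.8 times for OAS, 16.5 times for GBP, 13.5 times for IRG, 8.58 times for IFITM, 7.59 times for Isg and 2.06 times for the other Ifi genes. The Mx genes summed to 0, 0.05 and 0.06 TPM at 0h, 0.06, 0 and 0.15 at 1h, 1.52, 2.43 and 2.2 at 12h and 35.1, 39.7 and 48.7 at 48h, with a 0h level too near 0 for a ratio.

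**Figure D3:**
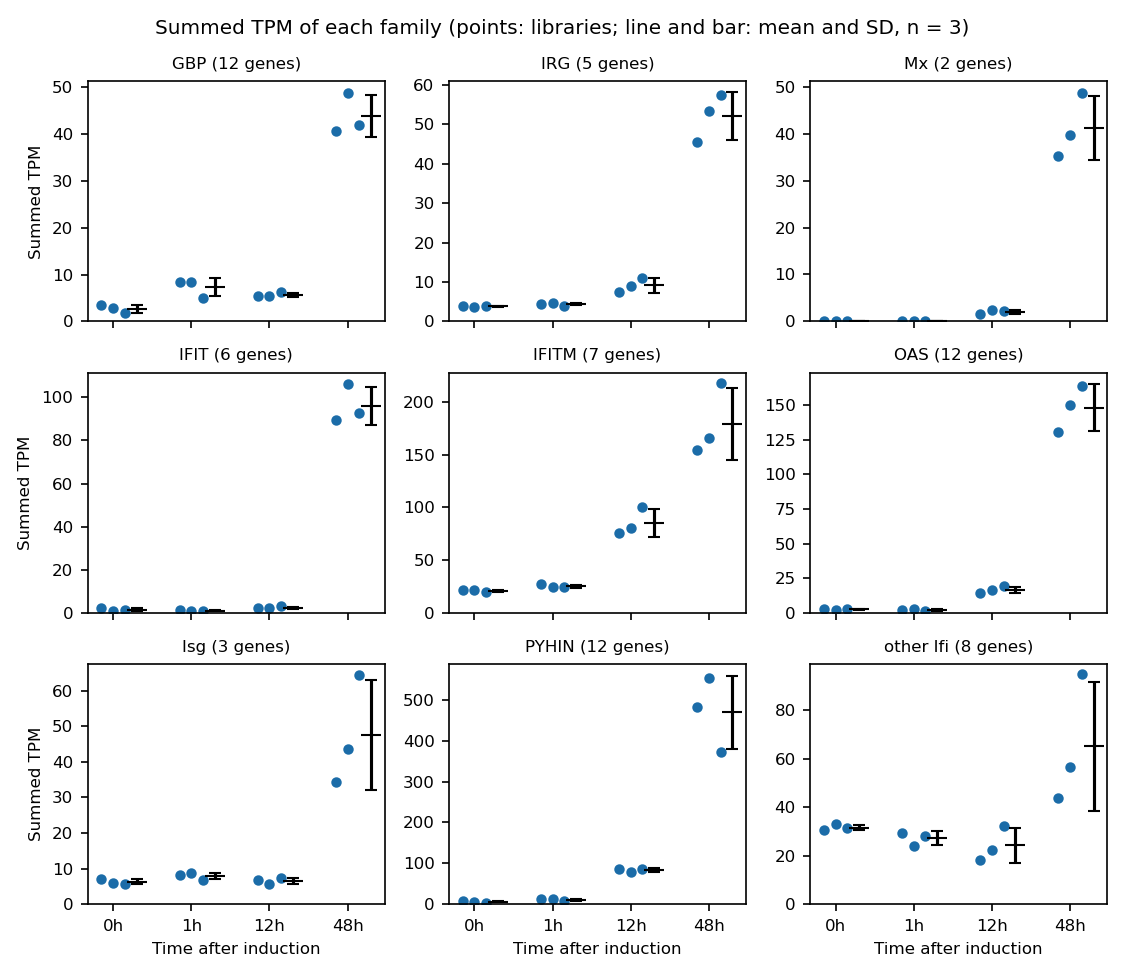
Summed TPM of each family (vertical axis, from 0) at the 4 time points. Points are the 3 libraries and the line with bars is their mean and SD (n = 3), and in every family the 48h points lie above all 0h points.

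The GBP genes encode guanylate-binding proteins, large GTPases that gather on pathogen vacuoles and on bacteria in the cytosol. They lie in a pair of clusters, on chromosome 3 (142493978 to 142669041, GRCm38) and chromosome 5 (105014150 to 105346472), with 6 members in each. All 9 tested members rose at 48h, at log2 fold changes of 1.52 to 4.79, and 9 of 9 rose between 12h and 48h. Gbp7 had the highest 48h level and read 1.65, 0.94 and 0.71 TPM at 0h, 5.11, 5.27 and 3.13 at 1h, 3.61, 4.41 and 3.85 at 12h and 16.4, 19.4 and 14.7 at 48h. It was called at all 3 times, changing on the log2 scale by 1.98 ± 0.29 at 1h (limma, adjusted p = 0.000883), 1.83 ± 0.29 at 12h and 3.88 ± 0.29 at 48h, and its 0h libraries lay below all others. A share of 10.0% of its 100-base windows also occurs in another annotated gene, mostly the pseudogene Gm43802. Gbp9 read 0.15, 0.27 and 0.31 TPM at 0h, 0.91, 0.21 and 0.37 at 1h, 0.5, 0.25 and 0.4 at 12h and 8.27, 10.2 and 9.29 at 48h. Gbp4 read 0.26, 0.22 and 0.1 TPM at 0h, 0.19, 0.15 and 0.02 at 1h, 0.34, 0.16 and 0.33 at 12h and 4.66, 5.02 and 6.1 at 48h. The 1h and 12h libraries of both overlapped those of 0h, and all 3 of 48h lay far above. Gbp5, which is known for promoting inflammasome assembly, read 0.13, 0.23 and 0.1 TPM at 0h, 0.67, 0.43 and 0.4 at 1h, 0.34, 0.11 and 0.42 at 12h and 3.56, 3.5 and 4.03 at 48h. Its 1h libraries all lay above those of 0h (1.25 ± 0.36, adjusted p = 0.0282), a call lost after median-of-ratios scaling.

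Gbp2, which gathers on the vacuoles of Toxoplasma, read 0.51, 0.19 and 0.08 TPM at 0h, 0.68, 0.88 and 0.53 at 1h, 0.44, 0.14 and 0.52 at 12h and 2.98, 4.47 and 2.42 at 48h and rose by 3.37 ± 0.48 at 48h (limma, adjusted p = 0.00014). Gbp3 read 0.63, 0.9 and 0.51 TPM at 0h, 0.89, 1.39 and 0.58 at 1h, 0.13, 0.37 and 0.6 at 12h and 2.02, 2.45 and 1.86 at 48h, the smallest change of the family (1.52 ± 0.41 at 48h, adjusted p = 0.0106), and was called lower at 12h with median-of-ratios scaling. On chromosome 5, Gbp10 read 0, 0 and 0.01 TPM at 0h, 0 in each library at 1h and 12h and 1.06, 1.61 and 1.16 at 48h. Gbp6, with a mean just under 1 TPM, read 0.06, 0 and 0 TPM at 0h, 0 in each library at 1h, 0, 0 and 0.03 at 12h and 0.64, 1.23 and 1.11 at 48h. Each of these had at most 0.06 TPM in any library before 48h. A share of 73.5% of the 100-base windows of Gbp10 and 64.5% of those of Gbp6 also occurs in another annotated gene, mostly Gm43302, so their levels are uncertain. Gbp11, annotated as a polymorphic pseudogene, was listed at 0 at 0h and 1h and read 1, 0.69 and 1.13 TPM at 48h. Gbp8, Gbp2b and the pseudogene Gbp2-ps were not tested and did not pass 0.28 TPM in any library.

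The IRG genes encode immunity-related GTPases, of which Irgm1, Irgm2 and Igtp regulate and Iigp1 and Ifi47 coat parasite vacuoles. All 5 rose at 48h by 3.27 to 4.02 on the log2 scale, and all 5 rose between 12h and 48h. The 12h calls of Irgm1, Irgm2, Igtp and Ifi47 were lost without the replicate 3 libraries. Irgm1 read 2.1, 2.19 and 1.62 TPM at 0h, 1.14, 1.54 and 1.26 at 1h, 4.11, 3.53 and 5.45 at 12h and 23, 27 and 27.7 at 48h, with every 1h library below those of 0h, a difference that was not called (-0.55 ± 0.21, adjusted p = 0.0726) unless values were scaled by median-of-ratios. Ifi47 read 1.15, 1.05 and 1.59 TPM at 0h, 2.68, 2.73 and 2.38 at 1h, 1.54, 3.45 and 3.4 at 12h and 11, 12.1 and 16 at 48h, and was called at 1h (1.00 ± 0.30, adjusted p = 0.0305) and 12h on TPM but at neither with median-of-ratios scaling. Igtp read 0.52, 0.26 and 0.49 TPM at 0h, 0.48, 0.28 and 0.28 at 1h, 0.86, 1.65 and 1.67 at 12h and 6.71, 8.31 and 9.64 at 48h. These genes had low but detected levels in every 0h library. Iigp1 was above 0 in 1 library before 48h and read 0.1, 0 and 0 TPM at 0h, 0 in each library at 1h and 12h and 2.27, 2 and 1.24 at 48h. Irgm2 read 0.11, 0.23 and 0.12 TPM at 0h, 0.17, 0.1 and 0.09 at 1h, 0.82, 0.31 and 0.55 at 12h and 2.48, 4.06 and 2.71 at 48h and rose by 3.65 ± 0.36 at 48h (limma, adjusted p = 7.63e-06). Igtp and Irgm2 share 162 exon bases on chromosome 11. The 12h call of Irgm1 was also lost with median-of-ratios scaling.

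The Mx genes encode dynamin-like GTPases that block viral replication, Mx1 in the nucleus and Mx2 in the cytoplasm. Both rose at 12h and at 48h and again between these times. Mx1 read 0 in each library at 0h, 0.06, 0 and 0.06 TPM at 1h, 0.39, 0.72 and 1 at 12h and 25.4, 26 and 31.4 at 48h (48h against 0h, adjusted p = 8.62e-09). Mx2, annotated here as a polymorphic pseudogene, read 0, 0.05 and 0.06 TPM at 0h, 0, 0 and 0.09 at 1h, 1.13, 1.71 and 1.2 at 12h and 9.71, 13.7 and 17.3 at 48h, and rose by 6.63 ± 0.35 at 48h (adjusted p = 5.64e-08). No library before 12h passed 0.09 TPM for either gene, and no 48h library was under 9.71 TPM.

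The IFIT genes encode tetratricopeptide proteins that bind foreign RNA, of which Ifit1 recognises caps without 2′-O-methylation. They lie together on chromosome 19 (34550694 to 34650009). All 6 rose at 48h, by 2.03 to 7.77, and 3 of 6 (Ifit1, Ifit3 and Ifit3b) had risen at 12h. Ifit2 was the most abundant and read 1.67, 0.71 and 0.93 TPM at 0h, 1.05, 0.66 and 0.91 at 1h, 0.98, 0.98 and 1.35 at 12h and 34.7, 40.9 and 31.5 at 48h. It was not called at 12h (0.07 ± 0.29 at 12h, adjusted p = 0.903) and rose by 4.97 ± 0.29 at 48h (adjusted p = 1.27e-07). Ifit3 read 0.09, 0.02 and 0 TPM at 0h, 0, 0.08 and 0.03 at 1h, 0.57, 0.48 and 0.73 at 12h and 25.7, 29.1 and 31.4 at 48h, and rose by 2.38 ± 0.31 at 12h and 7.77 ± 0.31 at 48h (limma, adjusted p = 9.72e-09). Ifit3b read 0, 0.1 and 0 TPM at 0h, 0 in each library at 1h, 0.35, 0.13 and 0.38 at 12h and 9.31, 12.2 and 10.4 at 48h. The windows of 100 bases that Ifit3 shares with Ifit3b make up 31.7% of Ifit3 and 27.4% of Ifit3b, so the split between them is uncertain. Ifit1 read 0.06, 0 and 0 TPM at 0h, 0 in each library at 1h, 0.26, 0.54 and 0.42 at 12h and 10.2, 11.7 and 9.97 at 48h. Ifit1bl1, a gene related to Ifit1, read 0.22, 0.06 and 0.19 TPM at 0h, 0.2, 0 and 0 at 1h, 0, 0 and 0.05 at 12h and 9.4, 11.8 and 8.87 at 48h, and its 12h level was called lower than 0h with median-of-ratios scaling. The low Ifit1bl2 had 0 to 0.05 TPM before 48h and 0.18, 0.56 and 0.45 TPM at 48h, where it was called (adjusted p = 0.00283).

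The IFITM genes encode small membrane proteins that hinder fusion of viruses with the cell. All 5 tested members had risen at both 12h and 48h. Ifitm2, second only to Ifi30 among the members at 0h, read 21.4, 21.1 and 19.8 TPM at 0h, 25.4, 23.3 and 23.6 at 1h, 60.7, 65.1 and 82.2 at 12h and 66, 69.7 and 102 at 48h, rose by 1.72 ± 0.18 at 12h (limma, adjusted p = 3.83e-05) and was not called between 12h and 48h (0.17 ± 0.18, adjusted p = 0.496). A share of 34.9% of its windows also occurs in another gene, mostly the overlapping Gm45717. Ifitm6, a member found mainly in myeloid cells, was listed at 0 in every 0h library and read 0 in each library at 0h, 0.76, 0.44 and 0.09 TPM at 1h, 11.6, 11.1 and 13.2 at 12h and 52.5, 54.8 and 62.7 at 48h. It was called at all 3 times (adjusted p = 0.00422 at 1h, 4.67e-07 at 12h and 1.91e-08 at 48h), whether or not values were scaled by median-of-ratios. Ifitm3, which acts on endosomes, read 0 in each library at 0h and 1h, 2.02, 1.18 and 3.13 TPM at 12h and 20.8, 24.6 and 34.5 at 48h. Ifitm1, which acts at the cell surface, read 0 in each library at 0h and 1h, 1.14, 1.62 and 1.5 TPM at 12h and 14.3, 15.9 and 17.9 at 48h. Both were thus first detected at 12h, and both rose further by 48h. Ifitm5, better known from bone, read 0, 0.18 and 0.08 TPM at 0h and 0.35, 0.54 and 0.97 TPM at 48h, was called at 12h and 48h, and lost the calls when single libraries were left out. Ifitm7 and Ifitm10 were not tested and did not pass 0.33 TPM.

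The OAS genes encode 2′-5′ oligoadenylate synthetases, which activate RNase L on meeting double-stranded RNA, and the Oas-like proteins. All 8 tested members rose at 48h, by 1.50 to 7.64 among those detected at 0h, and 7 of 8 had risen at 12h. Oasl2 reached the highest level and read 0.18, 0.18 and 0.22 TPM at 0h, 0.47, 0.35 and 0.15 at 1h, 2.18, 3.38 and 3.05 at 12h and 55.2, 64.8 and 55.9 at 48h. Its log2 fold change was 3.32 ± 0.29 at 12h and 7.64 ± 0.29 at 48h (adjusted p = 5.9e-09). Oasl1, known for holding back translation of Irf7, read 0.76, 0.9 and 0.93 TPM at 0h, 0, 0.12 and 0.17 at 1h, 3.62, 2.01 and 2.72 at 12h and 18.6, 18.7 and 23.1 at 48h. It was the only member that fell at 1h on TPM (-2.41 ± 0.34, limma, adjusted p = 0.000786), with all 1h libraries below all 0h libraries, before it rose by 1.55 ± 0.34 at 12h and 4.39 ± 0.34 at 48h. Oas1a read 0.88, 0.59 and 0.62 TPM at 0h, 0.48, 0.83 and 0.54 at 1h, 4.4, 5.08 and 6.15 at 12h and 14.5, 18.4 and 22.8 at 48h. Oas1g read 0.19, 0 and 0.22 TPM at 0h, 0.1, 0 and 0 at 1h, 0.57, 0.88 and 3.04 at 12h and 17.9, 22.6 and 32 at 48h. These genes share windows with each other (40.9% of Oas1a and 31.3% of Oas1g), so the level of each is uncertain. Every 12h and 48h library of each lay above all its 0h libraries. Oas2 read 0 in each library at 0h, 0, 0.03 and 0 TPM at 1h, 1.95, 2.65 and 1.85 at 12h and 15.4, 17.1 and 16.7 at 48h. It was listed at 0 in every 0h library and was called at 12h (adjusted p = 1.85e-07) and 48h (adjusted p = 1.46e-09). Oas3, the longest of the synthetases, read 0, 0.19 and 0.02 TPM at 0h, 0.07, 0.05 and 0.03 at 1h, 0.17, 0.45 and 0.52 at 12h and 4.49, 5.94 and 7.87 at 48h. Oas1b, known from flavivirus resistance and annotated here as a polymorphic pseudogene, read 0, 0.2 and 0.14 TPM at 0h, 0.25, 0.86 and 0.5 at 1h, 0.52, 1.2 and 0.96 at 12h and 2.28, 1.82 and 3.91 at 48h. Its 1h call (1.60 ± 0.51, adjusted p = 0.0393) was lost with median-of-ratios scaling. Oas1c read 0.98, 0.21 and 0.3 TPM at 0h, 0.37, 0.23 and 0.17 at 1h, 0.94, 0.48 and 0.72 at 12h and 1.99, 0.81 and 1.48 at 48h, changed least (1.50 ± 0.48, adjusted p = 0.026) and its 0h and 48h libraries overlapped, the call being lost when single libraries were left out. Oas1d and Oas1f were listed at 0 in all 12 libraries, and Oas1e and Oas1h did not pass 0.44 TPM.

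The genes named Isg did not move as one. Isg15, a ubiquitin-like protein that is conjugated to other proteins, read 0.23, 0.36 and 0.38 TPM at 0h, 0.22, 0 and 0.08 at 1h, 1.78, 1.04 and 1.95 at 12h and 23.5, 28.5 and 47.2 at 48h and rose by 1.97 ± 0.42 at 12h and 6.25 ± 0.42 at 48h (limma, adjusted p = 3.86e-07). Its 1h level was below 0h in every library (-1.22 ± 0.42) and was called lower only with median-of-ratios scaling. Isg20, an exonuclease, read 0.47, 0.55 and 0.84 TPM at 0h, 0.39, 0.13 and 0.54 at 1h, 1.65, 1.38 and 1.28 at 12h and 9.31, 13.5 and 15.1 at 48h and rose by 4.15 ± 0.36 at 48h, and its 12h call was lost with that scaling. Isg20l2 is named for its similarity to Isg20 and is known for processing ribosomal RNA. It read 6.34, 5.12 and 4.47 TPM at 0h, 7.45, 8.59 and 6.29 at 1h, 3.3, 3.28 and 4.01 at 12h and 1.42, 1.65 and 2.17 at 48h, and fell by 1.56 on the log2 scale at 48h (SE 0.21, adjusted p = 9.79e-05), with all 48h libraries below all 0h libraries.

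The PYHIN genes form a cluster on chromosome 1 (173468485 to 174031810) and encode proteins with a HIN domain that binds DNA, most of them with a pyrin domain as well. They held the largest share of the members' RNA at 48h, and 11 of 12 had already risen at 12h, the exception being Ifi206. All 12 rose at 48h, and 11 of 12 rose between 12h and 48h. Ifi202b, which lacks the pyrin domain, read 0 in each library at 0h, 0.09, 0.15 and 0.07 TPM at 1h, 3.67, 3.93 and 2.54 at 12h and 105, 126 and 75.7 at 48h, the highest 48h mean of any member. It was called at 12h (adjusted p = 1.38e-07) and 48h (adjusted p = 2.22e-10), and at 1h on TPM but not with median-of-ratios scaling. Ifi209 read 1.9, 1.78 and 1.22 TPM at 0h, 4.48, 4.15 and 2.67 at 1h, 35, 34 and 35.5 at 12h and 72.7, 77.9 and 56.7 at 48h. Most of its change on the log2 scale was present at 12h (4.36 ± 0.23 at 12h and 5.33 ± 0.23 at 48h, limma), and the step from 12h to 48h (0.97 ± 0.23, adjusted p = 0.00606) was under the fold threshold on TPM and past it with median-of-ratios scaling. Ifi208 read 0.08, 0.19 and 0.08 TPM at 0h, 0.87, 0.94 and 0.47 at 1h, 8.28, 7.12 and 7.65 at 12h and 44.3, 55.8 and 31.3 at 48h. It was the PYHIN gene called at 1h both on TPM (1.98 ± 0.30, adjusted p = 0.00104) and with median-of-ratios scaling. Ifi214 read 0.26, 0.48 and 0.27 TPM at 0h, 0.48, 0.65 and 0.66 at 1h, 14.6, 11.6 and 16.5 at 12h and 41.6, 50.4 and 36.7 at 48h. Ifi203, the PYHIN gene with the highest 0h level, read 3.25, 2.71 and 1.86 TPM at 0h, 3.97, 4.41 and 3.67 at 1h, 14.1, 11.5 and 11.7 at 12h and 42.4, 47 and 31.2 at 48h. Ifi203, Ifi208, Ifi209 and Ifi214 had more than 7 TPM in every 12h library.

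The other 7 genes of the cluster did not pass 4.92 TPM in any 12h library. Ifi204 read 0.2, 0 and 0.17 TPM at 0h, 0.51, 0.35 and 0.13 at 1h, 2.5, 1.95 and 1.92 at 12h and 43.8, 47.2 and 32.6 at 48h. Ifi207 read 0, 0.04 and 0 TPM at 0h, 0, 0.04 and 0.03 at 1h, 0.9, 0.6 and 0.68 at 12h and 39.4, 43.5 and 30.1 at 48h. Ifi213 read 0.14, 0 and 0 TPM at 0h, 0.22, 0.04 and 0.04 at 1h, 0.92, 1.14 and 1.1 at 12h and 30.8, 32.6 and 23.2 at 48h. Each was under 3 TPM at 12h and over 20 TPM in all 48h libraries. Ifi211 read 0.09, 0.14 and 0.03 TPM at 0h, 0.12, 0.54 and 0.35 at 1h, 2.87, 3.61 and 4.92 at 12h and 37.1, 42.1 and 35.1 at 48h, and 56.9% of its windows occur in other genes, mostly Ifi205, so its level is uncertain. Smaller shares of the windows of Ifi209 (16.9%), Ifi205 (15.0%), Ifi206 (13.1%) and Ifi204 (10.7%) also occur in other genes. Ifi205 read 0 in each library at 0h, 0.16, 0.15 and 0.05 TPM at 1h, 0.54, 0.11 and 0.41 at 12h and 11.9, 14.3 and 10.5 at 48h. The pseudogene Ifi203-ps read 0.47, 0.49 and 0.23 TPM at 0h, 0.38, 0.72 and 0.31 at 1h, 3.35, 2.53 and 2.2 at 12h and 9.02, 10.4 and 6.03 at 48h. Its log2 fold changes were 2.52 ± 0.34 at 12h and 4.12 ± 0.34 at 48h. Ifi206 read 0 in each library at 0h and 1h, 0.03, 0.04 and 0.15 TPM at 12h and 3.75, 5.44 and 3.83 at 48h and was the one member of the cluster not called at 12h (adjusted p = 0.137). Among the 48h libraries, replicate 3 was the lowest for 11 of the 12 PYHIN genes (12 of 12 with median-of-ratios scaling), while it was the highest for all 5 tested IFITM and all 3 Isg genes. Without that library, 49 members were called higher and 2 lower at 48h.

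The remaining Ifi genes belong to several families and did not share a course. Ifi27l2a, Ifih1 and Ifi44 rose. Ifi27l2a, a small hydrophobic membrane protein, read 1.68, 0.96 and 1.23 TPM at 0h, 1.96, 1.36 and 1.31 at 1h, 4.82, 5.62 and 8.76 at 12h and 34, 41.7 and 77.9 at 48h and rose by 5.15 ± 0.34 at 48h (limma, adjusted p = 2.99e-07), with a wide spread among the 48h libraries. Ifih1 (MDA5), the cytosolic sensor of long double-stranded RNA, read 0, 0 and 0.04 TPM at 0h, 0.04, 0 and 0.16 at 1h, 0.29, 0.62 and 0.37 at 12h and 1.9, 3.43 and 2.03 at 48h. Ifi44 read 0 in each library at 0h and 1h, 0, 0 and 0.04 TPM at 12h and 1.59, 1.91 and 1.21 at 48h. It did not pass 0.04 TPM before 48h. Ifi27 peaked at 12h and read 2.32, 4.06 and 3.17 TPM at 0h, 4.54, 3.62 and 3.79 at 1h, 7.2, 8.88 and 12.7 at 12h and 3.17, 4.77 and 4.75 at 48h, a rise of 1.56 ± 0.27 at 12h (adjusted p = 0.00119) and a fall by 1.15 between 12h and 48h (SE 0.27, adjusted p = 0.00601) that was not called with median-of-ratios scaling. Ifi35 read 1.79, 2.76 and 1.65 TPM at 0h, 1.66, 1.45 and 1.9 at 1h, 2.68, 3.46 and 4.73 at 12h and 2.29, 3.27 and 7.4 at 48h and was not called at 48h (0.89 ± 0.38, adjusted p = 0.0814) except with that scaling. Ifi30 (GILT), a lysosomal thiol reductase that prepares antigens for presentation, was the member with the highest 0h level and read 24.8, 25.1 and 25.1 TPM at 0h, 21.2, 17.5 and 20.8 at 1h, 3.14, 3.88 and 5.45 at 12h and 0.94, 1.42 and 1.86 at 48h. It fell by 2.60 at 12h (SE 0.25, adjusted p = 1.77e-05) and by 4.11 at 48h (SE 0.25, adjusted p = 1.67e-07) on the log2 scale, with no overlap between the 0h libraries and those of 12h or 48h. The annotation used here lists Ifi30 as a processed transcript and not as protein-coding. The library kit did not keep strand, and exon bases shared with a gene on the opposite strand make up 16.8% of Ifi35, 10.3% of Isg20l2, 9.44% of Oas1c and 8.66% of Ifi30, so reads of these pairs cannot be told apart. Ifi27l2b and Ifi44l were listed at 0 in all 12 libraries.

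The rest of the pathway was followed with lists of ligands, receptors, signalling proteins, inhibitors, sensors and other inducible genes that hold no member, 82 of whose genes were tested. At 48h 66 of 82 had risen and 1 had fallen, against 13.5% and 23.1% of all genes tested. At 12h 46 had risen and 0 had fallen (1 was lower at an unadjusted p under 0.05, limma), against 17.7% and 5.75%. At 1h 10 had risen and 6 had fallen, against 16.7% and 1.08%. With median-of-ratios scaling the counts were 70 and 0 at 48h (19.6% and 17.6% of all genes), 37 and 0 at 12h (12.0% and 9.42%), and 3 and 8 at 1h (4.09% and 2.82%). Without the replicate 3 libraries they were 63 and 1 at 48h (11.1% and 23.8% of all genes). Leaving out the same libraries gave 36 and 0 at 12h (11.1% and 6.07%), and 8 and 6 at 1h (11.9% and 0.909%).

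No interferon gene passed the filter. Of 21 ligand genes, 17 were listed at 0 in all 12 libraries, and the summed TPM of the list was 0 at 0h and did not pass 0.93 in any library. Ifnb1, for interferon beta, was listed at 0.36 TPM in 48h replicate 1 and at 0 in the other 11 libraries. Ifnk was listed at 0.08 TPM in 1 library at 1h, at 0.24, 0 and 0.3 TPM at 12h and at 0.33, 0.13 and 0.09 TPM at 48h. Ifnz was listed at 0.33 TPM in 1 library at 1h and at 0.24, 0.12 and 0.18 TPM at 48h, and Ifna13 at 0.07 TPM in 1 library at 1h. TPM hold no record of depth, so a value of 0 sets no upper limit here.

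The receptors other than Ifnlr1 were detected before induction, and the 5 tested had log2 fold changes of 1.06 to 2.16 at 48h, below the 4.50 that was the median of the tested members. Ifnar1 read 3.53, 3.44 and 2.83 TPM at 0h, 4.57, 5.84 and 3.81 at 1h, 8.69, 5.51 and 6.97 at 12h and 6.93, 7.56 and 7.28 at 48h, and Ifnar2 read 1.49, 2.61 and 1.71 TPM at 0h, 4.84, 4.36 and 3.64 at 1h, 5.14, 3.97 and 6.23 at 12h and 8.09, 10.9 and 7.6 at 48h. Ifnar2 was called at all 3 times (limma, log2 fold changes of 1.13 ± 0.25 at 1h, 1.37 ± 0.25 at 12h and 2.16 ± 0.25 at 48h), at 1h only on TPM, and Ifnar1 at 12h, only on TPM, and 48h (1.13 ± 0.21, adjusted p = 0.00095). Ifngr1 read 3.92, 3.86 and 2.39 TPM at 0h, 2.74, 4.53 and 2.96 at 1h, 4.48, 3.62 and 4.71 at 12h and 8.63, 7.35 and 5.43 at 48h and was called at 48h alone (1.06 ± 0.27, adjusted p = 0.00683), a call lost without 0h replicate 3 or without 48h replicate 1. Ifngr2 read 3.94, 3.16 and 1.45 TPM at 0h, 5.33, 3.71 and 4.64 at 1h, 6.75, 8.04 and 7.81 at 12h and 8.32, 7.97 and 8.78 at 48h and was called at 12h (1.48 ± 0.30) and 48h (1.63 ± 0.30). Il10rb, a chain of the interferon lambda receptor, read 2.05, 1.45 and 0.7 TPM at 0h, 0.65, 1.68 and 1.06 at 1h, 3.75, 1.8 and 2.81 at 12h and 3.01, 2.34 and 3.13 at 48h and was not called on TPM (1.07 ± 0.41 at 48h, adjusted p = 0.0558). Its partner Ifnlr1 was listed at 0 in all 12 libraries.

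Among the transcription factors, Stat2 read 3.27, 2.45 and 3.08 TPM at 0h, 3.4, 4.75 and 2.87 at 1h, 8.24, 10.8 and 12.2 at 12h and 44.4, 53.1 and 64.5 at 48h. It rose at 12h, by 1.78 ± 0.23, and at 48h, by 4.15 ± 0.23 (limma, adjusted p = 9.36e-08), and its 1h libraries overlapped those of 0h. Irf9, the DNA-binding partner of the complex, read 0.81, 0.55 and 0.36 TPM at 0h, 1.79, 1.54 and 1.44 at 1h, 3.64, 6.25 and 6.74 at 12h and 5.55, 8.44 and 9.39 at 48h, so that most of its rise (3.57 ± 0.31 at 48h) was present at 12h (3.07 ± 0.31). Irf1 read 0.95, 1.38 and 1.32 TPM at 0h, 1.49, 0.9 and 0.88 at 1h, 2.76, 2.97 and 2.18 at 12h and 10.8, 10.8 and 11.4 at 48h and rose by 3.09 ± 0.23 at 48h. Irf7, the master factor of type I interferon transcription, read 0, 0.21 and 0.31 TPM at 0h, 0.05, 0.68 and 0.43 at 1h, 3.43, 3.74 and 4.48 at 12h and 105, 108 and 166 at 48h, with log2 fold changes of 4.08 ± 0.60 at 12h and 9.05 ± 0.60 at 48h (adjusted p = 3.31e-07), the largest rise in its list at both times. In this list, Irf3 was the one gene that fell at 48h (by 1.33, SE 0.29, adjusted p = 0.0027, on TPM only), and Nlrc5, which drives MHC class I genes, rose most at 1h (1.89 ± 0.17, adjusted p = 3.54e-05) while Irf5 fell most (by 1.90, SE 0.22).

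**Figure D4:**
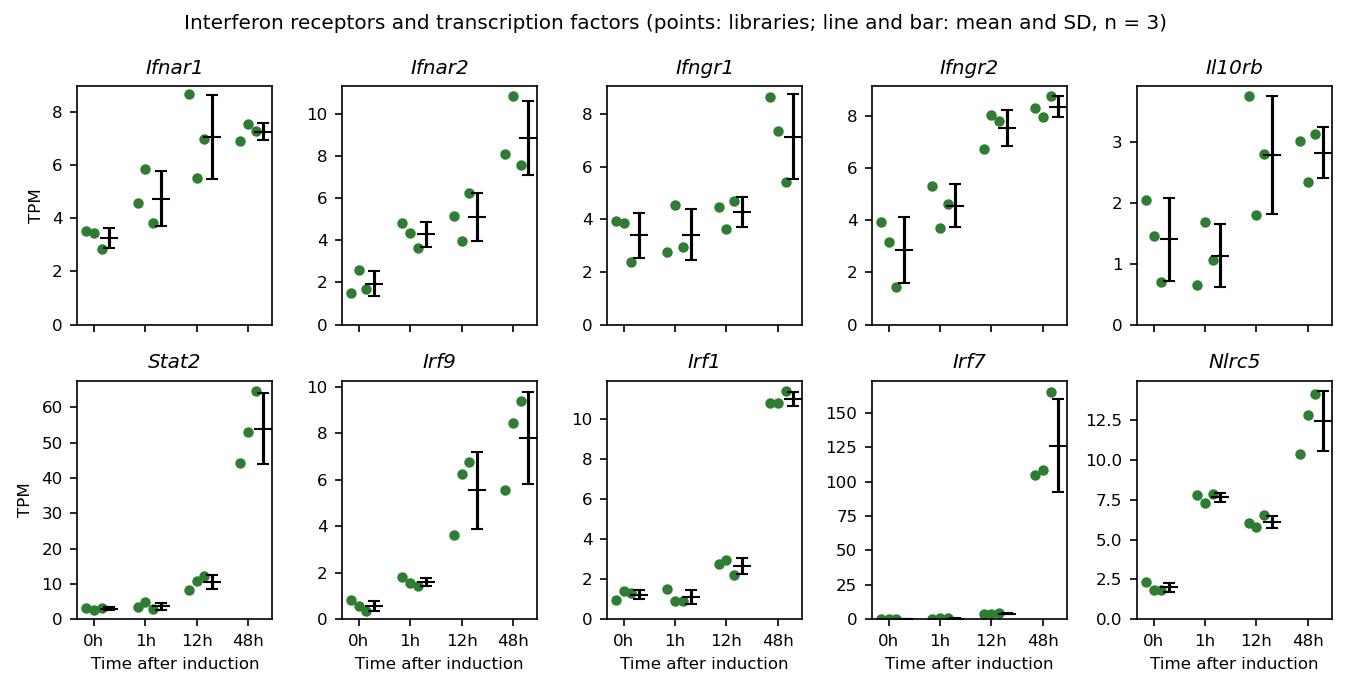
TPM (vertical axes, from 0) of the receptor chains Ifnar1, Ifnar2, Ifngr1, Ifngr2 and Il10rb and of the transcription regulators Stat2, Irf9, Irf1, Irf7 and Nlrc5 at the 4 time points. Points are the 3 libraries and the line with bars their mean and SD (n = 3), and the 48h points of Irf7 lie between 105 and 166 TPM, against at most 4.48 TPM at 12h.

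In the other lists different genes led at different times. Socs3, an inhibitor of cytokine receptors, rose most among the inhibitors at 1h (3.99 ± 0.36, limma, adjusted p = 3.86e-05) and 12h (5.17 ± 0.36), and Usp18, which removes Isg15 from proteins and dampens Ifnar2, rose most at 48h. Usp18 read 0.09, 0.07 and 0.03 TPM at 0h, 0.36, 0.51 and 0 at 1h, 1.32, 2.99 and 3.25 at 12h and 19, 23.7 and 22.9 at 48h, a change of 7.08 ± 0.57 (adjusted p = 1.59e-06). The phosphatase gene Ptpn6 fell at 1h by 1.21 (SE 0.18). Of the 16 sensors and adaptors tested, 13 rose at 48h, led by Zbp1, a sensor of Z-form nucleic acids, which read 0 in each library at 0h, 0, 0.07 and 0.24 TPM at 1h, 0.65, 0.48 and 0.03 at 12h and 12.1, 12.4 and 12.1 at 48h. At 12h the kinase Ikbke rose most (3.91 ± 0.32), and at 1h the kinase Tbk1 rose (1.22 ± 0.29, on TPM only) and Tlr9 fell most (by 2.06, SE 0.29). Of the 39 other inducible genes tested, 35 rose at 48h, with the GTPase gene Tgtp2 first (7.89 ± 0.61), 21 rose at 12h, with Slfn2 first (5.75 ± 0.59), and Pml was the one called at 1h, a fall by 1.07 (SE 0.25). Markers of plasmacytoid dendritic cells, which make much interferon, were at 0 to 0.11 TPM for Siglech, Ccr9 and Klk1 in all 12 libraries, while the list of 6, which includes the interferon-inducible Bst2, summed to 27.6 to 33.9 TPM at 0h and 63.4 to 168 TPM at 48h. Cd3e, Cd3g, Cd4, Col1a1, Col3a1, S100a9 and Mpo, which mark T cells, fibroblasts and granulocytes, were at 0 in all 12 libraries. Granulocyte markers were not all absent, since S100a8 and Camp had risen by 12h and 48h. S100a8, listed at 0 in every 0h library, ranged from 0.88 to 2.75 TPM among the 12h libraries and from 0.92 to 2.85 TPM among the 48h libraries. Its log2 fold changes were 4.10 ± 0.45 and 4.23 ± 0.45 (limma), and those of Camp were 5.93 ± 0.55 and 1.65 ± 0.55. At 48h the Camp libraries overlapped those of 0h, with means of 0.363 and 0.06 TPM. The limma adjusted p of this call was 0.0301 and reached 0.253 under an alternative setting. The whole granulocyte list of 8 summed to 0 to 0.18 TPM at 0h, 8.32 to 13.7 at 12h, led by Camp, and 1.33 to 3.43 at 48h, led by S100a8. The T cell list of 8 summed to 1.47 to 2.16 TPM at 0h and 0.56 to 1.09 at 48h, and the fibroblast list of 6 to at most 0.34 in any library. The part of any marker list in these results was not tested.

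PCHi-C showed which of these promoters gained listed contacts. A bait held a transcription start site of 38 of the 67 members, among them 6 of 12 GBP but 3 of 12 PYHIN genes. The list for 0h holds interactions with a CHiCAGO score of at least 5, and the unit of the values in the other lists is not given in the sources used here, so that only the presence of an interaction was used. The lists held 138769, 137836, 131598 and 144072 distinct interactions at 0h, 1h, 12h and 48h, and those of the members numbered 327, 347, 388 and 464. More interactions at 48h than at 0h were listed for 22 of the 38 members and fewer for 9, compared with more for 42.6% of all 23193 genes with a bait (9891 genes) and fewer for 9586. From 12h to 48h the listed number was higher for 18 members and lower for 17. Over all genes with a bait it was higher for 9777 (42.2%) and lower for 9679. With 1 list per time point there is no replicate check, and a bait fragment can hold the start of another gene too.

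GBP and IFITM baits gained most, and OAS and IRG baits had fewer listed contacts at 48h than at 0h while the RNA of these families rose. The GBP baits had 61, 68, 88 and 149 interactions at 0h, 1h, 12h and 48h. Gbp3, with the smallest RNA rise of the tested GBP genes, had 11, 12, 15 and 41, Gbp5 had 27, 34, 44 and 56, and Gbp6 had 5, 4, 4 and 14. Gbp7, with the highest 48h RNA level of the family, had 16, 16, 21 and 26. Gbp2 had 7, 7, 9 and 17, and Gbp2b, whose RNA was not tested, had 1 at each time. The 6 IFITM baits had 29, 48, 98 and 86, highest at 12h. Ifitm3 alone had 6, 15, 22 and 29. Ifitm6, with the largest RNA rise of the family, had 5, 11, 7 and 6, and Ifitm10, whose RNA was not tested, had 4, 1, 14 and 12. Whether contacts and RNA moved together was not tested. In contrast, the 8 OAS baits had 63, 36, 14 and 14, most of the loss being at Oasl1 with 51, 26, 10 and 9. The largest part of the Oasl1 loss was at a bait (114933543 to 114942169) away from the gene start at 114923240, at another annotated transcript start. That bait had 35, 14, 4 and 3, and the other Oasl1 baits had 7, 7, 3 and 2 and 10, 6, 4 and 4. Oasl2 had 10, 6, 2 and 2 and Oas2 had 3, 2, 1 and 2, whereas Oas3 had 3, 3, 1 and 4. At 0h, 6 of the 51 Oasl1 interactions scored at least 10, as did 0 of those of Oasl2, Oas2 and Oas3. Over all members, 65 of 327 did, so the OAS loss rests mostly on 0h interactions with scores under 10. Oas1a and Oas1f had 0 at both 0h and 48h. Irgm1 had 56, 53, 41 and 38. Isg15 had 20, 18, 15 and 9. The IFIT baits had 41, 36, 57 and 76, and Ifi202b had 14, 42, 27 and 45.

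**Figure D5:**
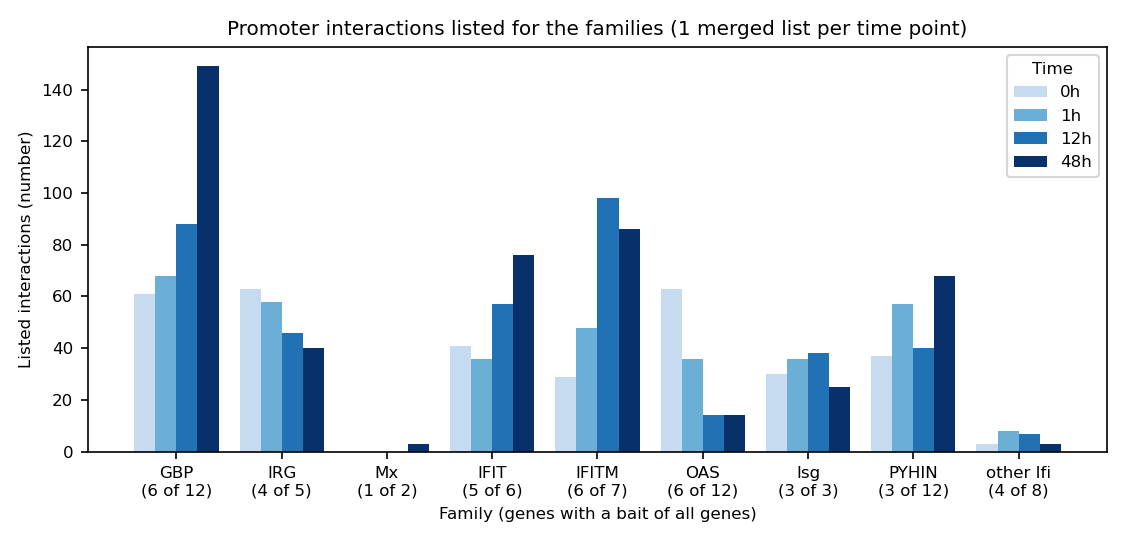
Number of listed PCHi-C interactions (vertical axis, from 0) of the baits of each family at 0h, 1h, 12h and 48h, from 1 merged list per time point, with the number of genes that have a bait under each family name. The GBP bars climb from 61 to 149 and the OAS bars descend from 63 to 14.

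Many of the contacts at 48h were not listed at 0h. Of the 327 member interactions at 0h, 53.5% were listed at 48h as well, close to the 55.9% of all interactions, and these made up 37.7% of the members' interactions at 48h, against 53.8% for all. For the GBP genes 85.3% of the 0h interactions were listed again at 48h, where they were 34.9% of the list, and for the OAS genes 11.1% were listed again. Interactions that joined a pair of member baits numbered 10, 15, 19 and 18 at the 4 times, 6 of them within the GBP genes at each time.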

How the data were processed

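RNA-seq of C10 cells was examined in 12 libraries, 3 biological replicates at each of 4 time points. The authors merged technical replicates, trimmed reads with Trim Galore 0.6.2, mapped them with HISAT2 2.1.0 to mm10 and estimated TPM with RSEM, and deposited 1 table of TPM values. The depth of each library is unknown from these values. Deposited PCHi-C lists came from HiCUP and CHiCAGO (score cutoff 5) on 2 merged replicates. The deposited 0h list carries CHiCAGO scores, and the other deposited lists carry whole numbers of another kind, which were not used. The Hi-C data were not analysed here.

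Values of log2(TPM + 0.1) of the genes whose mean TPM reached 0.1 were fitted in 1 model of 4 time points with limma 3.58.1 (R 4.3.3, trended prior), and p-values were adjusted by Benjamini-Hochberg over all genes tested. The study's methods name a count test, for which TPM do not serve. The script was tested on simulated data. Members, pathway lists and tests were chosen with earlier results of these data known. Members whose mean TPM reached 1 at any time, called members below it, the leading gene of each pathway list in each direction, all receptors, Stat2, Irf1, Irf7 and Irf9 were named, and some genes of the lists are not reported here. Alternatives were other pseudocounts, filters, scalings and thresholds, a replicate block, leaving out each library and, added later, leaving out replicate 3 at all times. Promoters were read from RefSeq (GRCm38.p6) and searched for motifs, and exons were compared in windows of 100 bases.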

Additional observations from a re-analysis of the deposited data

How the results depend on the processing

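Of 331 calls of the tested members and pathway genes, each in 1 contrast, none changed direction in the 5581 comparisons with an alternative setting, 5228 stayed past the thresholds and 353 did not. The count of members called higher at 1h (9) was 5 without the replicate 3 libraries (an alternative chosen after seeing the data), 1 with a pseudocount of 1, with quantile normalization or with a log2 fold change beyond 2, and 3 with median-of-ratios scaling or with rescaling without the 20 most abundant genes. Members called lower at 1h (1) numbered 0 with a pseudocount of 1, 2 with a mean TPM of at least 1, 3 with median-of-ratios scaling or without the 20 genes, and 6 with quantile normalization. At 12h, members called higher (38) became 21 with a pseudocount of 1, and those called lower (1) became 3 with median-of-ratios scaling or quantile normalization. At 48h those called lower (2) became 1 beyond a log2 fold change of 2. Between 12h and 48h those called lower (2) became 0 with median-of-ratios scaling, without the 20 genes, with quantile normalization and beyond a log2 fold change of 2. Pathway genes called higher at 1h (10) became 4 with a pseudocount of 1, 3 with each of the 3 other scalings and 1 beyond a log2 fold change of 2, where those called lower at 1h (6) became 1, those called higher at 12h (46) became 22 and those called lower at 48h (1) became 0. Quantile normalization and median-of-ratios scaling also gave 0 for the last count. The log2 ratio of summed TPM at 48h to 0h moved, with median-of-ratios scaling and with rescaling without the 20 genes, from 3.10 to 3.50 and 3.43 for IFITM, from 3.76 to 4.16 and 4.10 for IRG, from 5.85 to 6.26 and 6.20 for OAS, and from 3.94 to 4.35 and 4.30 for all members. With only 0h interactions scored at least 10, the members had 65 at 0h in place of 327. The cause of these shifts was not tested.

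With each library left out in turn, members called higher numbered 4 to 8 at 1h, 33 to 36 at 12h, 49 to 51 at 48h and 46 to 48 between 12h and 48h, and members called lower 1 to 3 at 1h, 1 to 1 at 12h, 2 to 2 at 48h and 1 to 3 between 12h and 48h. The 3 lower at 1h arose without 1h replicate 1, and the 1 lower between 12h and 48h without 12h replicate 3 or 48h replicate 1. Pathway genes called numbered 7 to 12 higher and 6 to 7 lower at 1h, 40 to 46 higher at 12h, and 64 to 68 higher and 1 to 2 lower at 48h, the 2 arising without 48h replicate 3. In all, 39 calls were lost when 1 library was left out, among them Gbp5, Ifi47, Oas1b, Ifi202b, Ifi209, Ifi211, Ifnar2 and Tbk1 at 1h, Ifitm5, Ifi47, Irgm1, Irgm2, Isg20, Oas3, Ifnar1, Irf1 and Zbp1 at 12h, Ifitm5, Oas1c, Ifngr1 and Pml at 48h, and Oas1b, Ifi27 and Nlrc5 between 12h and 48h. The labels do not say what a shared replicate number stands for. Libraries of the same number had correlations of -0.01 to 0.26 in their deviations from the group means, 7 of 18 pairs were over 0.1, and 7 of 12 libraries correlated best with their own number, those of replicate 3 more with each other than with any other library. A replicate block in the model gave 9 higher and 2 lower members at 1h, 37 and 1 at 12h, 52 and 2 at 48h and 48 and 2 between 12h and 48h, and 11, 46 and 66 pathway genes higher at 1h, 12h and 48h.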
